A study of Mus musculus with 2 samples.

Results

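Somatostatin is a neuropeptide that is cut from a precursor, stored in dense-core vesicles and released from a class of inhibitory neurons. Its receptors are coupled to Gi/o proteins, which lower cyclic AMP, open inwardly rectifying potassium channels and restrain calcium channels. In the forming cortex the neurons that make the peptide arise in the medial ganglionic eminence (MGE) and migrate tangentially, while the excitatory neurons they will meet descend from radial glia through Eomes+ intermediate progenitors and Neurod1+ newborn neurons. The 5 genes described here are the ligand gene *Sst* and the receptor genes *Sstr1*, *Sstr2*, *Sstr3* and *Sstr4*, taken by symbol from the 32285 genes listed. The question addressed is which cells of dissociated cortex samples hold transcripts of the ligand, which hold transcripts of a receptor, and at which step of the excitatory lineage a receptor first appears.

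The data were 2 droplet single-cell RNA libraries (10x Genomics 3' v3.1) of papain-dissociated cerebral cortex from mouse embryos at E16.5. Both samples carry the genotype WT and come from the control embryos of a line called EomesDot, whose alleles the labels do not describe. No treatment is given, so all comparisons run between cell classes and not between conditions. The labels do not say whether the libraries came from separate litters. With library as a block in the fit, the p-values measure only how far class differences varied between these 2 libraries. That spread may be technical.

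The libraries listed 9049 and 13556 cell barcodes with 46398156 and 64324236 unique molecular identifiers (UMIs, each standing for 1 captured transcript). Cells with 1500 to 60000 UMIs and under 10% mitochondrial UMIs were kept, which left 5966 cells in replicate 1 and 10247 in replicate 2, at medians of 5706 and 4938 UMIs. The libraries shared 40 barcodes, of which 21 were kept in both. Marker genes placed 78.2% and 76.0% of these cells in a class. MGE interneurons numbered 391 and 522, radial glia 226 and 436, Eomes+ Neurod1- cells 253 and 444, Eomes+ Neurod1+ cells 228 and 310, Neurod1+ Eomes- cells 647 and 923, and upper-layer neurons 1009 and 1862. Striatal-type neurons numbered 662 and 1095 and GABAergic progenitors 341 and 641. The cells were dissociated, so a class name stands for markers and not for a position in the tissue. Sums of the marker lists describe the gates and are no independent check, because the same lists placed the cells. The 6 MGE markers summed to 2749 and 2655 CPM (UMIs scaled to 1000000 UMIs of the class) in MGE interneurons against 340.2 and 355.2 CPM in interneurons of the caudal ganglionic eminence (CGE). Radial glial markers reached 15175 and 15374 CPM in radial glia and 2518 and 2082 CPM in Eomes+ Neurod1- cells, but also 11969 and 10280 CPM in glial-fated progenitors, and the MGE markers were at 1281 and 1536 CPM in microglia. The upper-layer markers were at 4632 and 4287 CPM in upper-layer neurons but also at 4263 and 4068 CPM in Neurod1+ Eomes- cells and 4434 and 4253 CPM in Eomes+ Neurod1+ cells, and these steps were gated on *Eomes* and *Neurod1*. The layer 5 markers were higher in striatal-type neurons, at 1803 and 1534 CPM, than in layer 5 neurons, at 1661 and 1451 CPM, so the latter class is not well set apart by its list.

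*Sst* (ENSMUSG00000004366) is a protein-coding gene on chromosome 16 from 23889573 to 23891342 in GRCm38.p6. *Sstr2* (ENSMUSG00000047904) lies on chromosome 11 from 113619327 to 113626028, *Sstr1* on chromosome 12 from 58211421 to 58216037, *Sstr3* on chromosome 15 from 78537014 to 78549365 and *Sstr4* on chromosome 2 from 148395377 to 148396764. A close relative of the ligand is cortistatin (*Cort*), a peptide that binds the same receptors. The coding stretches below are shown because they hold the receptor-binding core Phe-Trp-Lys-Thr, whose codons are in capitals. They were read from the GENCODE M39 transcripts and run 5′ to 3′.
Sst: aacttcTTCTGGAAGACAttcacatcctgt
Cort: aacttcTTCTGGAAAACCttctcctcgtgc
Of the 30 bases 24 were identical, and of the 12 bases of the core 10.

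The second pair of sequences is shown because *Sst* and *Sstr2*, the members whose levels separated the cell classes, both carried the full cyclic AMP response element TGACGTCA (capitals) just upstream of a RefSeq transcript start. The *Sst* stretch is chr16:23890874-23890903 on the minus strand and the *Sstr2* stretch is chr11:113619258-113619287 on the plus strand (GRCm38.p6).
Sst promoter: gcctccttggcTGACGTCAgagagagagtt
Sstr2 promoter: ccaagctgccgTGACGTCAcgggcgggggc
The element began 48 bases before the start of *Sst* and 58 bases before that of *Sstr2* in the RefSeq promoter table. For *Sst* that start belongs to a shorter transcript than the gene span given above, so the *Sst* stretch lies inside that span. This element is bound by CREB family factors and is a textbook feature of the somatostatin gene. It reads the same on both strands, and it was found in 588 of 32851 RefSeq windows of 300 bases around a start, or 1.79%. The windows of *Sstr3* and *Sstr4* did not hold these letters, and *Sstr1* was not searched. Searched on both strands, the T-box letters AGGTGTGA were found in 1.28% of all windows and in none of the *Sst*, *Sstr2*, *Sstr3* and *Sstr4* windows, and the E-box letters CAGATG in 17.2% of all windows and in 1 of the 2 *Sstr3* windows. A match of letters is a description and not a measured binding site.

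Over the kept cells, *Sst* had 1430 UMIs in replicate 1 and 2032 in replicate 2. *Sstr2* had 1089 and 1657 UMIs, *Sstr1* 55 and 82, *Sstr3* 19 and 38, and *Sstr4* 1 in each library. The depth behind *Sst* and *Sstr2* is thus far greater than that behind *Sstr1* and *Sstr3*, and *Sstr4* could not be compared between classes at this depth. *Sstr4* was found in a single striatal-type neuron of replicate 1 and a single upper-layer neuron of replicate 2. The last receptor gene of the family, *Sstr5*, had 1 UMI in replicate 1 and 0 in replicate 2.

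The ligand was concentrated in MGE interneurons. *Sst* stood at 403.2 CPM in replicate 1 and 321.8 CPM in replicate 2 of this class, a mean of 362.5 CPM ± 57.6 (SD, n = 2). The next class was that of CGE interneurons at 19.2 and 26.3 CPM. The other 17 classes had means from 4.6 CPM in endothelial cells to 22.8 CPM in CGE interneurons. The libraries of MGE interneurons did not overlap with those of any other class, whereas each of the following 12 classes overlapped with the next in the order.

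**Figure D1:**
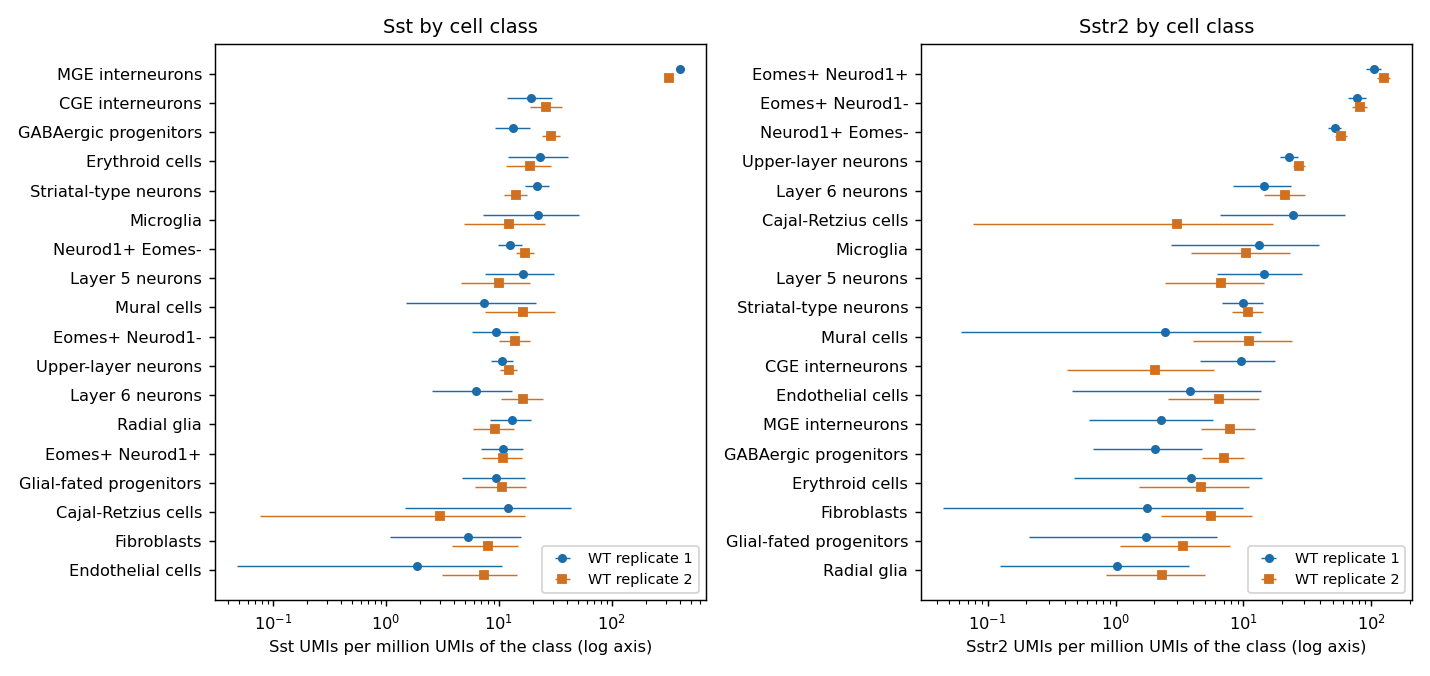
*Sst* (left) and *Sstr2* (right) CPM in 18 cell classes, on log axes, with 1 point for each WT library and bars for the exact 95% Poisson interval, which covers counting error only. *Sst* is at 403.2 and 321.8 CPM in MGE interneurons and has means of 22.8 CPM or less in the other classes shown, while *Sstr2* falls from means of 114.9 CPM in Eomes+ Neurod1+ cells to 1.66 CPM in radial glia.

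In the fit over all classes, *Sst* was higher in MGE than in CGE interneurons by a log2 fold change of 3.93 ± 0.23 (SE) with an adjusted p of 1.7e-15 (edgeR's quasi-likelihood test, Benjamini-Hochberg over 15400 genes). Of the 3 members with UMIs in these classes and enough counts to be tested it alone passed, and 5.16% of all genes tested did. *Sstr3* had 0 UMIs in both classes. Against upper-layer neurons, in which *Sst* stood at 10.7 and 12.3 CPM, the log2 fold change was 4.91 ± 0.18 (SE) with an adjusted p of 1.7e-22 in the same test. It was 5.66 when only cells under 5% mitochondrial UMIs were used. There 2 of the 4 members tested passed, *Sst* higher and *Sstr2* lower, beside 23.4% of all genes.

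*Sst* UMIs were spread unevenly over the MGE interneurons. Among these cells 24.8% in replicate 1 and 19.2% in replicate 2 had at least 1 *Sst* UMI, at medians of 3593 and 3884 UMIs per cell. At this depth a cell with 0 *Sst* UMIs may still express the gene, so these are shares of cells with a UMI and not of expressing cells. The share in erythroid cells, which should lack the transcript, was 7.75% and 7.66% at medians of 2832 and 3277 UMIs, and in upper-layer neurons 7.14% and 6.66%. Cells with a single *Sst* UMI could not be told from this background, and levels around the 23.4 and 18.8 CPM of erythroid cells were not read as expression. With every cell thinned to 1500 UMIs the shares were 16.1% and 11.3% in MGE interneurons and 2.28% and 2.36% in upper-layer neurons. At least 2 *Sst* UMIs were found in 12.02% and 10.5% of MGE interneurons but in 0.694% and 0.376% of upper-layer neurons.

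The counts within the MGE class had a long tail. In replicate 1, 294 of the 391 cells had 0 *Sst* UMIs, 50 had 1, 28 had 2 to 4, 10 had 5 to 19 and 9 had 20 or more, with a maximum of 148. In replicate 2 the corresponding numbers were 422, 45, 27, 18 and 10 of 522 cells, with a maximum of 164. Cells with at least 5 *Sst* UMIs held 82.7% and 84.5% of the *Sst* UMIs of the class. In both libraries most *Sst* transcripts of the class thus came from 19 and 28 cells.

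**Figure D2:**
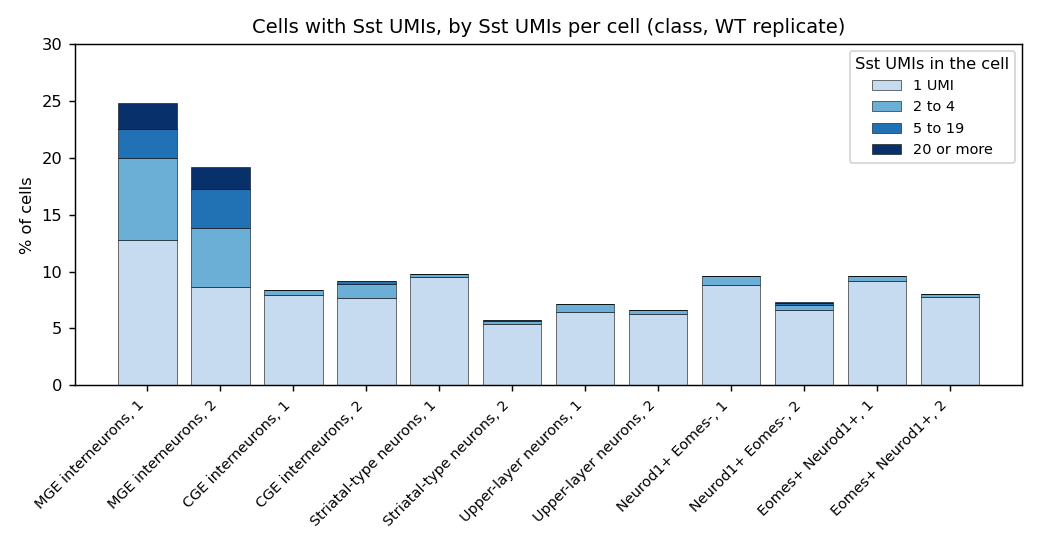
Share of cells (%) with *Sst* UMIs in 6 cell classes of each WT library, stacked by the number of *Sst* UMIs in the cell. MGE interneurons reach 24.8% and 19.2% and hold 19 and 28 cells with 5 or more UMIs, while most cells in the other bars have 1 UMI and at most 3 cells of a bar have 5 or more.

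The MGE class held 49.9% and 36.6% of all *Sst* UMIs of the kept cells. Cells that no marker rule placed held 22.9% and 30.5%, at 48.9 and 50.4 CPM, above every class but MGE interneurons, so part of the ligand's transcripts could not be assigned. Single cells outside the class could be rich in the transcript, and 1 Neurod1+ Eomes- cell of replicate 2 held 21 *Sst* UMIs.

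The related ligand gene *Cort* had 3 and 19 UMIs in MGE interneurons, 1.70 and 8.23 CPM, out of 39 and 37 UMIs in the libraries. In the MGE interneurons with at least 2 *Sst* UMIs it had 2 and 10 UMIs. The libraries differed too widely for *Cort* to be ordered between classes.

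*Sstr2* was the receptor gene whose level changed along the excitatory lineage. It was at 1.04 and 2.29 CPM in radial glia, which is 2 and 6 UMIs in all. It was at 77.5 and 81.0 CPM in Eomes+ Neurod1- cells, at 104.6 and 125.2 CPM in Eomes+ Neurod1+ cells, at 51.7 and 57.8 CPM in Neurod1+ Eomes- cells, and at 22.8 and 27.3 CPM in upper-layer neurons. Among all 18 classes, the libraries of the 4 later steps did not overlap with those of the next class in the order, while radial glia came last and overlapped with glial-fated progenitors at 1.72 and 3.36 CPM. The order of the 5 steps was the same in both libraries.

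**Figure D3:**
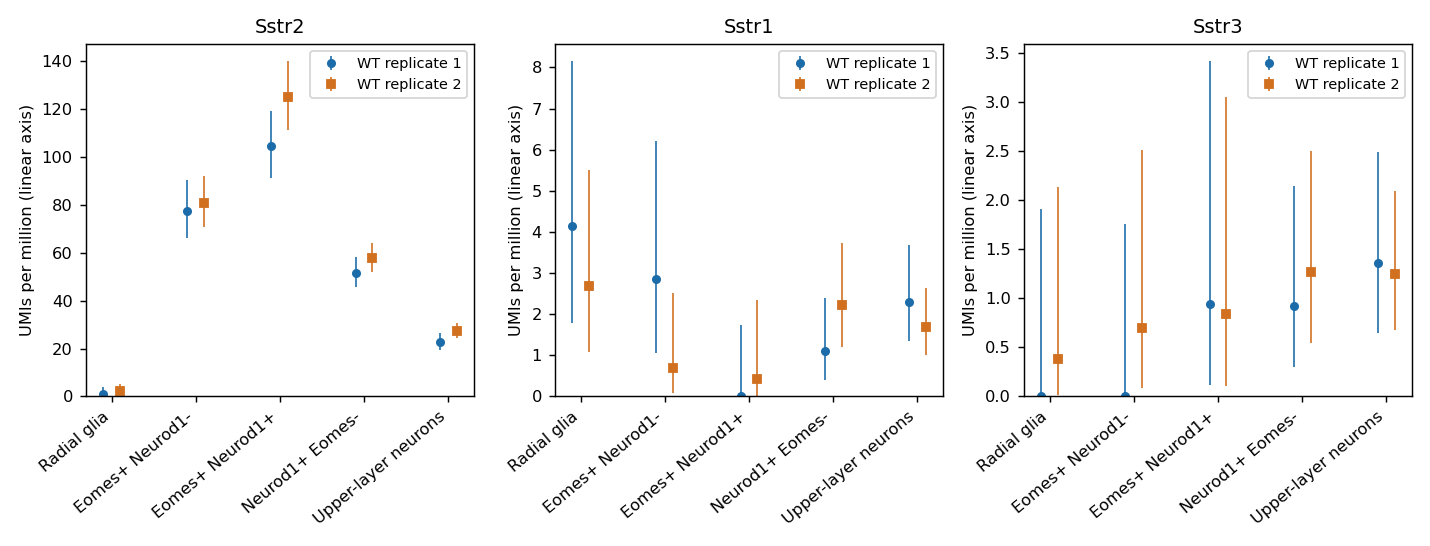
*Sstr2*, *Sstr1* and *Sstr3* CPM in radial glia, 3 steps gated by *Eomes* and *Neurod1*, and upper-layer neurons, on linear axes that differ between panels. Points are WT libraries and bars exact 95% Poisson intervals, and *Sstr2* is at 1.04 and 2.29 CPM in radial glia and at 104.6 and 125.2 CPM in Eomes+ Neurod1+ cells, while the intervals of *Sstr1* and *Sstr3* overlap between most steps.

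At the first step, from radial glia to Eomes+ Neurod1- cells, the log2 fold change of *Sstr2* was 5.49 ± 0.36 (SE), a fold of 44.9, with an adjusted p of 6.8e-15 (edgeR). *Sstr2* was the only 1 of the 4 members tested that passed, where 29.2% of all genes did. From the pooled counts of 396 and 8 UMIs the ratio was 45.2, with an exact 95% interval of 22.7 to 105.4 that covers counting error only. The level in radial glia was at or below that of erythroid cells, 3.89 and 4.70 CPM, and was read as background. A UMI of *Sstr2* was found in 39.1% and 36.3% of Eomes+ Neurod1- cells at medians of 7755 and 6213 UMIs, and in 0.885% and 1.38% of radial glia at 8106 and 4913 UMIs. In erythroid cells the share was 1.41% and 1.61%.

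*Sstr2* was also counted in Eomes+ Neurod1- cells in which several radial glial markers were detected. Eomes+ Neurod1- cells with at least 4 of the 9 radial glial markers had *Sstr2* at 72.2 and 61.1 CPM, and those with 3 or fewer had 84.3 and 100.9 CPM. The radial glial markers were also at 449.6 and 1339 CPM in erythroid cells. The part of background, depth and doublets in this split was not tested. Radial glia with *Neurog2*, a proneural factor that acts upstream of *Eomes*, had 0 *Sstr2* UMIs in the 27 and 23 cells of the libraries. The number of these cells was too small to set their level apart from the other radial glia. By *Eomes* level, all Eomes+ cells with 1 *Eomes* UMI had *Sstr2* at 82.4 and 99.6 CPM, those with 2 had 92.9 and 125.2 CPM, and those with 3 or more had 94.0 and 95.7 CPM. In replicate 1 the cells with a single *Eomes* UMI were the lowest of these and in replicate 2 they were not, and the differences were not tested.

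*Sstr2* had its highest mean in the cells with both step genes. From Eomes+ Neurod1- to Eomes+ Neurod1+ cells its log2 fold change was 0.61 ± 0.16 (SE) with an adjusted p of 0.0196 (edgeR). It was again the only 1 of 4 members that passed, beside 4.73% of all genes. The direction was the same in both libraries, at 0.52 and 0.69, but the adjusted p was 0.0681 in DESeq2, 0.0757 without the replicate block and 0.0580 with at least 2 UMIs required of each step gene. The call of this step was thus lost in these 3 settings.

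*Sstr2* then fell over the following steps. From Eomes+ Neurod1+ to Neurod1+ Eomes- cells the log2 fold change was -1.07 ± 0.15 (SE) with an adjusted p of 1.0e-06 (edgeR), a 2.10-fold drop, and *Sstr2* was the only 1 of 4 members that passed beside 22.4% of all genes. From Neurod1+ Eomes- cells to upper-layer neurons it was -1.11 ± 0.16 (SE) with an adjusted p of 7.3e-06 (edgeR), a 2.16-fold drop, and again only *Sstr2* of 4 members passed, beside 4.16% of all genes. Neighbouring steps share a class, so these fold changes are not independent of each other. The share of cells with an *Sstr2* UMI was 59.2% and 53.2% in Eomes+ Neurod1+ cells, 29.2% and 26.9% in Neurod1+ Eomes- cells and 12.8% and 12.5% in upper-layer neurons. Thinned to 1500 UMIs per cell, the shares were 12.7% and 13.5% in Eomes+ Neurod1- cells, 16.2% and 17.4% in Eomes+ Neurod1+ cells, 8.501% and 10.5% in Neurod1+ Eomes- cells and 3.96% and 3.97% in upper-layer neurons, which is the same order.

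**Figure D4:**
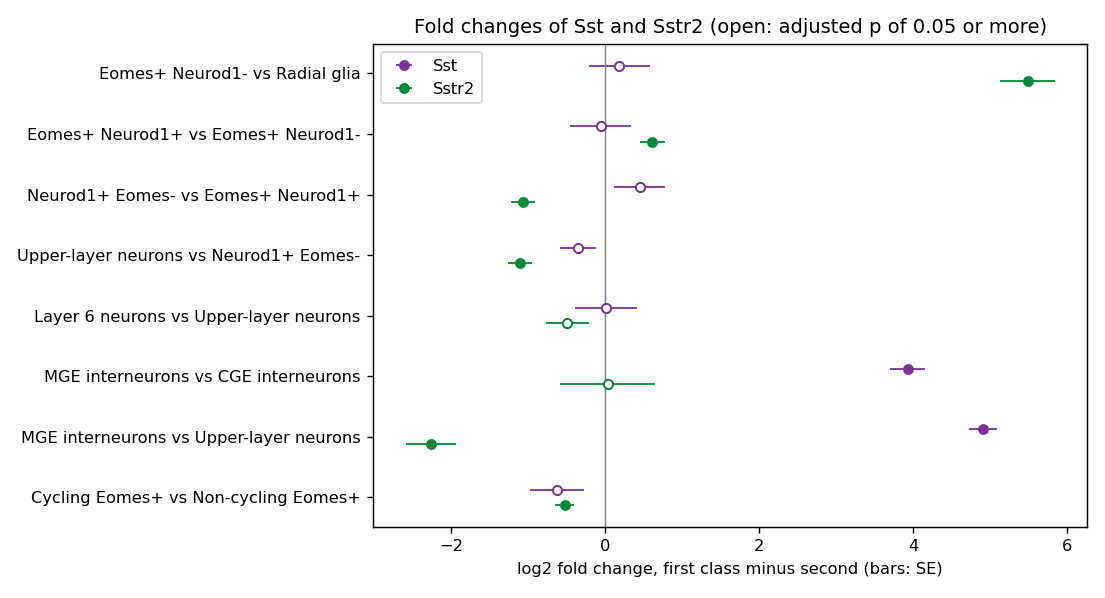
Log2 fold changes of *Sst* and *Sstr2* in 8 comparisons of cell classes, first class minus second, with bars for the SE, from edgeR on sums per library. Filled points passed an adjusted p of 0.05: *Sstr2* lies at 5.49 for Eomes+ Neurod1- cells against radial glia, and *Sst* at 3.93 and 4.91 for MGE interneurons against CGE interneurons and upper-layer neurons.

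Deep-layer neurons were below the newborn neurons as well. *Sstr2* was at 14.4 and 21.3 CPM in layer 6 neurons and at 14.5 and 6.69 CPM in layer 5 neurons. None of the 4 members tested passed between layer 6 and upper-layer neurons in edgeR or in DESeq2, where 13.7% of all genes did in edgeR, and 1 member, *Sstr3*, had an unadjusted p under 0.05. The log2 fold change of *Sstr2* there was -0.49 ± 0.28 (SE) with an adjusted p of 0.293 (edgeR). From layer 6 neurons downwards the classes overlapped with their neighbours in the order of *Sstr2* levels, among them Cajal-Retzius cells at 24.2 and 3.03 CPM, microglia at 13.3 and 10.6 CPM and striatal-type neurons at 9.94 and 10.8 CPM.

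*Sstr2* was low in the class that held the ligand. It was at 2.26 and 7.79 CPM in MGE interneurons, 4 and 18 UMIs, around the level of erythroid cells. It was lower there than in upper-layer neurons by a log2 fold change of -2.27 ± 0.33 (SE) with an adjusted p of 8.0e-07 (edgeR). In single libraries that value was -3.23 without replicate 2 and -1.81 without replicate 1, and it was -3.16 with the highest doublet scores removed. Against CGE interneurons, at 9.58 and 2.03 CPM, the log2 fold change was 0.03 ± 0.62 (SE), and the libraries went in opposite directions, at -1.99 and 1.72.

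Within the MGE class, the cells with at least 2 *Sst* UMIs, 47 and 55 in number, held 0 *Sstr2* UMIs in either library. The 294 and 422 cells with 0 *Sst* UMIs held 2 and 17. The exact 95% interval of the ratio ran from 0 to 1.12, so a difference was not detectable at this depth. No receptor gene had enough counts to be tested here, where 2.70% of the other genes passed. The MGE interneurons with at least 2 *Sst* UMIs had 2 *Sstr1* UMIs in replicate 1 and 0 in replicate 2.

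Relative to their total UMIs, cycling Eomes+ cells had less *Sstr2* than non-cycling ones. Cells with at least 3 of 15 S phase and mitosis genes stood at 62.9 and 80.9 CPM, and the other Eomes+ cells at 104.4 and 111.4 CPM. The cycling cells were also deeper, at medians of 10584 and 8016 UMIs against 7587 and 6206, and the part of depth in the result was not tested. The log2 fold change was -0.53 ± 0.12 (SE) with an adjusted p of 1.1e-04 (edgeR), and *Sstr2* was the only 1 of 2 members tested that passed, where 30.3% of all genes did. In DESeq2 the log2 fold change was -0.55 with an adjusted p of 0.329, so that the call was lost. The other member tested, *Sst*, stood at 8.14 and 8.31 CPM in cycling and 11.2 and 14.8 CPM in non-cycling cells, with an adjusted p of 0.169 (edgeR).

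The cells were then split by *Neurod1*. Among Eomes+ Neurod1- cells *Sstr2* was at 40.5 and 59.7 CPM in cycling and 99.8 and 92.6 CPM in non-cycling cells, a difference of -0.87 on the log2 scale with an adjusted p of 6.9e-04 (edgeR) in a fit chosen after seeing the data. Among Eomes+ Neurod1+ cells it was at 94.4 and 108.5 CPM in cycling and 108.2 and 133.4 CPM in non-cycling cells. The mean share of cells with an *Sstr2* UMI was 29.7% in cycling and 41.1% in non-cycling Eomes+ Neurod1- cells. In Eomes+ Neurod1+ cells it went the other way, at 58.5% in cycling and 55.7% in non-cycling cells. Thinned to 1500 UMIs per cell, the latter shares were 11.9% and 18.1%. Whether the cycle difference itself differed between these subsets was not tested. Radial glia held 2 and 6 *Sstr2* UMIs in all, so no cycle difference was detectable there.

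**Figure D5:**
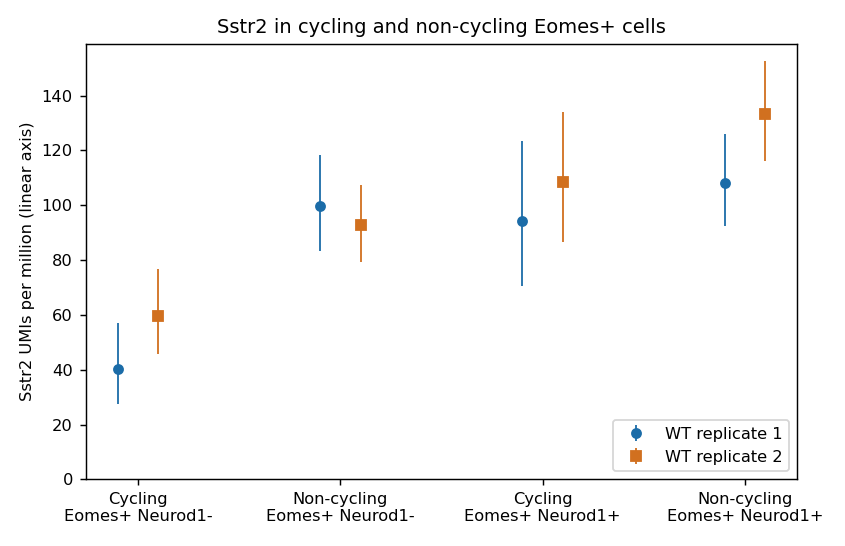
*Sstr2* CPM (linear axis) in cycling and non-cycling Eomes+ cells, split by *Neurod1*, with 1 point for each WT library and exact 95% Poisson intervals. Cycling Eomes+ Neurod1- cells are lowest at 40.5 and 59.7 CPM, and the other subsets lie between 92.6 and 133.4 CPM.

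*Sstr1* had another distribution, at low counts. It was at 4.14 and 2.67 CPM in radial glia (8 and 7 UMIs), 2.85 and 0.695 CPM in Eomes+ Neurod1- cells, 0 and 0.421 CPM in Eomes+ Neurod1+ cells, 1.10 and 2.22 CPM in Neurod1+ Eomes- cells, and 2.30 and 1.69 CPM in upper-layer neurons (17 and 19 UMIs). The class with the most *Sstr2* thus had 1 *Sstr1* UMI. None of the lineage comparisons of *Sstr1* passed: the log2 fold change was -0.97 ± 0.81 (SE, adjusted p 0.417) from radial glia to Eomes+ Neurod1- cells and 2.63 ± 1.22 (SE, adjusted p 0.130, unadjusted 0.039) from Eomes+ Neurod1+ to Neurod1+ Eomes- cells, both in edgeR. For the latter, the pooled ratio of 20 UMIs to 1 UMI was 7.62, with an exact 95% interval of 1.22 to 316. All *Sstr1* classes overlapped with their neighbour in the order. Cycling radial glia, 146 and 232 cells at medians of 9030 and 5589 UMIs, had *Sstr1* at 5.82 and 3.23 CPM, and the 80 and 204 non-cycling ones, at medians of 5911 and 4364 UMIs, had 0 and 1.87 CPM, from 8 and 5 against 0 and 2 UMIs. This difference was not tested.

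*Sstr3* was counted mainly in the later excitatory cells. Upper-layer neurons had 10 and 14 *Sstr3* UMIs (1.36 and 1.25 CPM), Neurod1+ Eomes- cells 5 and 8, Eomes+ Neurod1+ cells 2 in each library, Eomes+ Neurod1- cells 0 and 2, and radial glia 0 and 1. MGE interneurons, CGE interneurons, layer 5 and layer 6 neurons had 0 *Sstr3* UMIs in both libraries. The pooled *Sstr3* counts were 0 UMIs in MGE interneurons and 24 in upper-layer neurons. The exact 95% interval of the ratio of MGE to upper-layer levels ran from 0 to 0.758 and covers counting error only. The adjusted p of that comparison was 0.0586 (edgeR), short of the threshold, and no other comparison of *Sstr3* passed.

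*Sstr2* lies within the span of *Slc39a11*, a zinc transporter gene on the opposite strand (chromosome 11, 113244851 to 113650200). The sources used here do not state whether the counting used the strand, and without it reads of the pair cannot be told apart. *Slc39a11* was at 16.6 and 37.8 CPM in radial glia and 106.0 and 93.8 CPM in Eomes+ Neurod1- cells, and the step of 1.83 ± 0.19 (SE) on the log2 scale had an adjusted p of 4.6e-10 (edgeR), against 5.49 for *Sstr2*. In upper-layer neurons it was still at 51.9 and 57.3 CPM. From Eomes+ Neurod1- to Eomes+ Neurod1+ cells its log2 fold change was 0.15 (adjusted p 0.705 in edgeR) against 0.61 for *Sstr2*, and from Neurod1+ Eomes- cells to upper-layer neurons it was -0.32 (adjusted p 0.232 in edgeR) against -1.11. From Eomes+ Neurod1+ to Neurod1+ Eomes- cells *Slc39a11* fell by 0.60 on the log2 scale (adjusted p 0.0016 in edgeR) and in cycling against non-cycling Eomes+ cells its difference was -0.44 (adjusted p 0.0012 in edgeR), where *Sstr2* changed by -1.07 and -0.53. Its part in the *Sstr2* counts was not tested.

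The genes whose mean log2(CPM + 1) followed that of a member most closely over the 18 classes were taken from 13306 genes, and the correlations are descriptions across classes of the same 2 libraries. Those nearest to *Sst* were *Nxph2* (Pearson's r = 0.90), which encodes a neurexophilin, *Gm13429* (0.87), *Gm31218* (0.86), *Rpp25* (0.84) and *Syndig1* (0.79), each with its highest mean in MGE interneurons. Those nearest to *Sstr2* were *A530058N18Rik* and *2600014E21Rik* (both 0.90), the overlapping *Slc39a11* (0.88), *Rnd2* (0.88), a small GTPase of migrating neurons, and *A930024E05Rik* (0.88). Those nearest to *Sstr1* were *Ptprz1* (0.76), a receptor phosphatase of radial glia, *Cfap299* (0.76), *Pard6b* (0.75), *Epop* (0.75) and *Bmpr1b* (0.74), at the low counts of *Sstr1* stated above.

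The other genes of the pathway, from peptide processing to receptor desensitisation, comprised 59 genes, of which 55 passed the filter on low counts. From radial glia to Eomes+ Neurod1- cells 14 rose and 9 fell, where 13.4% of all genes rose and 15.7% fell, and the median log2 fold change of the list was 0.22 against -0.01 for all genes. Among the genes listed as effectors 4 of 14 rose and 1 fell. *Plcb1*, a phospholipase C gene of that list, went from a mean of 94.8 to 1311 CPM (log2 fold change 3.84 ± 0.28 SE, adjusted p 1.0e-13 in edgeR). *Kcnj3*, which encodes a subunit of the G protein-gated potassium channel, went from 3.93 to 46.7 CPM (3.66 ± 0.32 SE, adjusted p 1.6e-11 in edgeR). The vesicle protein gene *Chga* went from 4.16 to 43.5 CPM, while the convertase gene *Pcsk5* fell by 2.23, the vesicle release factor gene *Cadps2* by 1.84 and the adenylyl cyclase gene *Adcy2* by 1.55 on the log2 scale.

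In the next step 4 of the 55 genes rose and 1 fell, beside 2.49% and 2.25% of all genes, with list and overall medians of -0.05 and -0.01. *Chga* (1.18), *Cadps* (1.14) and *Scg5* (0.53) rose on the log2 scale. All 5 genes called were among the 14 of peptide maturation and dense-core vesicles, where 4 rose and 1 fell and the median log2 fold change was -0.0028. From Eomes+ Neurod1+ to Neurod1+ Eomes- cells, where *Sstr2* fell, 22 rose and 6 fell, beside 10.9% and 11.5% of all genes, with medians of 0.49 and 0.0023. *Adcy1* (2.66), *Rgs7* (2.13) and *Adcy2* (1.93) rose. *Plcb1* fell by 1.33, and the receptor kinase genes *Grk5* and *Grk3* by 0.78 and 0.72. From there to upper-layer neurons 3 rose and 6 fell, beside 1.73% and 2.43% of all genes, with medians of -0.03 and 0.01. *Kcnj3* reached a mean of 113.9 CPM and *Plcb1* dropped to 390.6 CPM.

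Layer 6 neurons had 18 of the 55 genes higher and 2 lower than upper-layer neurons, beside 7.94% and 5.74% of all genes, with medians of 0.30 and -0.03. The largest differences were those of *Pcsk5* (5.62), *Rgs4* (4.72) and *Adcy1* (4.32), while *Nln*, which encodes a peptidase that cuts small neuropeptides, and the inhibitory G protein gene *Gnai2* were lower, at -0.87 and -0.86. MGE interneurons had 18 higher and 6 lower than upper-layer neurons, beside 12.2% and 11.2% of all genes, with medians of 0.30 and -0.01. *Cadps2* (5.0), the prohormone convertase gene *Pcsk1* (3.46) and *Pcsk5* (2.90) were higher in MGE interneurons. *Kcnj3* was lower, at 13.1 against 113.9 CPM, as were *Nln* (-0.91) and *Plcb1* (-0.81).

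Between MGE and CGE interneurons 5 of the 55 genes were higher and 5 lower, beside 2.83% and 2.33% of all genes, with medians of -0.03 and 0.02. *Adcy1* (2.29), the calcium channel gene *Cacna1a* (1.57) and *Rgs7* (1.41) were higher in MGE interneurons, and *Scg2* (-3.02), *Kcnj3* (-1.89) and *Nln* (-1.16) were lower. Within the MGE class, 48 genes could be tested between cells with at least 2 *Sst* UMIs and cells with 0. There 5 were higher and 1 lower, beside 1.85% and 0.845% of all genes, with medians of 0.18 and 0.0040. In the *Sst*-rich cells *Pcsk5* was at 49.2 against 13.2 CPM, the convertase inhibitor gene *Pcsk1n* at 315.2 against 160.6 CPM and *Rgs7* at 137.5 against 69.3 CPM, while *Cadps2* was at 3.40 against 48.2 CPM. In cycling Eomes+ cells 5 of 45 genes were higher and 12 lower than in non-cycling ones, beside 17.3% and 13.1% of all genes, with medians of -0.22 and -0.01. *Cadps2* (1.30), *Grk6* (0.94) and *Thop1* (0.69) were higher, and *Adcy5* (-1.15), *Pcsk1n* (-0.94) and *Cacna1b* (-0.92) were lower on the log2 scale.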

How the data were processed

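The deposited matrices hold raw UMI counts per gene and cell barcode, made by the authors with Cell Ranger against mm10. The version is 7.0.0 in the submitters' processing notes and 7.1.0 in the matrix header. Whether intronic reads were counted is not given in the sources used here. The members and gene lists were chosen with earlier results of these data known, and the marker scoring was set after the files were opened. Cells (1500 to 60000 UMIs, under 10% mitochondrial) were classed by markers. Radial glia needed 4 of 9 radial glial markers, at most 1 excitatory marker and no *Eomes* or *Neurod1*; MGE interneurons needed 2 of 8 GABAergic markers, *Lhx6* and at least 2 MGE markers, more than of the CGE or striatal list. Steps needed 1 UMI of the step gene. Cells that met no rule stayed unclassed. The rules did not remove all cells with markers of several lineages, such as Eomes+ cells with radial glial markers. No doublet caller was used except as an alternative.

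Counts were summed per library and class, and the 18 classes that held 20 cells or more per library were fitted together in edgeR 4.0.16 by quasi-likelihood (R 4.3.3; TMM; 15400 genes that reached 10 counts in 2 or more sums) with library as a block, since each class was taken from both libraries. Cycling and *Sst*-rich subsets had fits of their own. Genes were called at an adjusted p under 0.05. CPM scale each sum to 1000000 UMIs. The scripts were tested on simulated counts. The named pathway genes are the 3 largest called changes in each direction that reached 10 CPM in 1 of the classes and had 1 sign in the 2 libraries. Alternatives were DESeq2 1.42.0, other size factors, no filter, no replicate block, only the compared classes, Scrublet scores (scanpy 1.11.5), at least 2 UMIs of the step genes, at least 3000 UMIs, mitochondrial share under 5% and each library alone. Positions and promoters come from RefSeq tables of GRCm38.p6. A split of the MGE class by marker genes is not reported here.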

Additional observations from a re-analysis of the deposited data

How the results depend on the processing

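With 2 libraries, leaving out 1 leaves a ratio within a single library (0.5 UMI added) and no test. Of the 26 fold changes followed, the calls of *Sstr2* that were lost were 2. From Eomes+ Neurod1- to Eomes+ Neurod1+ cells the log2 fold change was 0.58 in DESeq2 (adjusted p 0.0681), 0.61 without the replicate block (0.0757) and 0.58 with at least 2 UMIs of the step genes (0.0580), so that 0 members were called, while single libraries gave 0.52 to 0.69. Between cycling and non-cycling Eomes+ cells DESeq2 gave -0.55 (0.329) and 0 members called, and single libraries -0.67 to -0.42. The cause was not tested. Leaving out the replicate block changed no other call. Single libraries ranged from 5.07 to 5.93, -1.12 to -1.02 and -1.17 to -1.06 for *Sstr2* at the other lineage steps, from -3.23 to -1.81 for *Sstr2* and 4.67 to 5.17 for *Sst* in MGE interneurons against upper-layer neurons, and from 3.55 to 4.35 for *Sst* against CGE interneurons. Signs of uncalled values turned for *Sst* from Eomes+ Neurod1- to Eomes+ Neurod1+ cells (0.18 under 5% mitochondrial share), for *Sst* in layer 6 against upper-layer neurons (-0.047 with no filter, -0.17 with at least 3000 UMIs, -0.31 under 5% mitochondrial share), for *Sstr3* from Neurod1+ Eomes- cells to upper-layer neurons (-0.19 with 2 UMIs of the step genes) and for *Sstr2* between MGE and CGE interneurons (-0.021 with only the compared classes, -0.86 with doublets removed). Single libraries also turned uncalled signs. Without replicate 2 the values were -0.42 (*Sst*, radial glia to Eomes+ Neurod1-), 0.28 (*Sst*, to Eomes+ Neurod1+), -0.24 (*Sstr3*, to Neurod1+ Eomes-), -0.71 (*Sst*, layer 6 against upper-layer) and -1.99 (*Sstr2*, MGE against CGE), and without replicate 1 they were -0.38 (*Sstr1*) and -0.037 (*Sstr3*) from Neurod1+ Eomes- to upper-layer neurons. The counts of *Sstr1*, *Sstr3* and *Sstr4* limit what could be detected.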
